A study of Mus musculus with 282 samples.

Results

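AXB-18/PgnJ, AXB-19/PgnJ and AXB-20/PgnJ are recombinant inbred strains of mice whose sample titles give them 1 common number (AXB19a, AXB19 and AXB19b), and the 9 mice that carry these strain labels, 3 of each strain, were compared with each other in the whole hypothalamus. They are 9 of the 282 male mice on a high fat diet in the series, all but 1 of which have a single strain in their labels, and no mouse in it received another diet. The other groups used here were 3 mice each of AXB-5/PgnJ, AXB-13/PgnJ and AXB-15/PgnJ, 3 mice each of the parents A/J and C57BL/6J, and all 12 AXB/BXA strains with 3 mice. The labels give no age, litter or batch, and each mouse is 1 unstranded mRNA library.

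Recombinant inbred strains are made by crossing inbred parents and then mating brothers to sisters for many generations, so that each strain becomes fixed for a mosaic of the parental genomes. In the AXB and BXA sets the parents are A/J and C57BL/6J. Strains that separated late in the inbreeding share most of their mosaic and differ only in the segments that were still unfixed when they separated, and in mutations that arose later. A gene whose level depends on its own parental allele can therefore mark such a segment in RNA.

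The 3 strains were separated by few genes. Of 14079 genes, 58 (0.412%) differed among them at a Benjamini-Hochberg adjusted p under 0.05 in the moderated F test of limma, on log2(FPKM + 1) in 1 fit of all 99 strains, and 873 had an unadjusted p under 0.05. AXB-18 and AXB-20 differed in 44 genes (0.313%), AXB-18 and AXB-19 in 36 (0.256%), and AXB-19 and AXB-20 in 20 (0.142%). By contrast, 969 genes (6.88%) differed among AXB-5, AXB-13 and AXB-15, and 1128 (8.01%) differed between A/J and C57BL/6J. With the spread taken from the 9 sister mice alone, which leaves 6 residual degrees of freedom, 17 genes (0.121%) passed, of which 14 were among the 58. A total of 26 of the 58 genes also passed without any 1 of the 9 mice.

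Among the 66 pairs that the 12 AXB/BXA strains form, the 3 sister pairs had the fewest genes. The other 63 pairs had 219 to 792, with a median of 411. The mean over the 3 sister pairs was 33.3 genes, and the next lowest mean of any 3 of the 12 strains was 230.3. In an exact permutation test over all 220 sets of 3 strains, one-sided for fewer genes, p was 0.00455, the smallest value that these sets allow. The 3 strains and the test were chosen with earlier results of these data known, so this p only describes their rank. For genes that also differed at least 2-fold, the sister pairs had 12, 13 and 5 genes, and the lowest of the other pairs had 72.

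**Figure D1:**
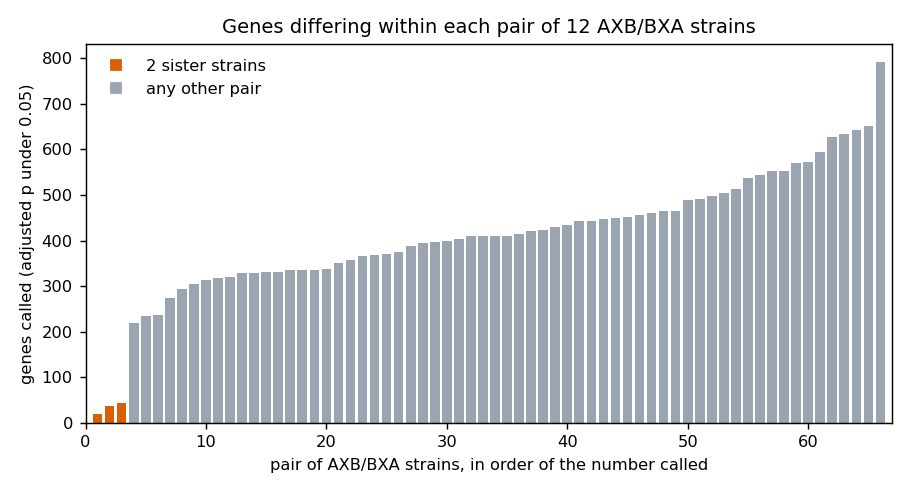
Number of genes called between 2 strains (vertical axis, limma adjusted p under 0.05) for the 66 pairs of 12 AXB/BXA strains with 3 mice each, in rising order (horizontal axis). The 3 orange bars are the sister pairs, with 20, 36 and 44 genes, and the lowest grey bar, any other pair, is at 219.

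Pairs of mice of 1 sister strain were, in the mean, more like each other than pairs from different sister strains. The median absolute difference over genes between 2 mice averaged 0.127 on the log2(FPKM + 1) scale for the 9 pairs within a strain and 0.140 for the 27 pairs between strains. The ranges overlapped widely, from 0.111 to 0.147 within and from 0.114 to 0.174 between strains. Mouse by mouse, 7 of the 9 were nearer to their own strain by more than 0.001, and AXB-18 mouse 1 and AXB-19 mouse 1 were not. An exact permutation test over all 280 ways of dividing 9 mice into 3 sets of 3, one-sided for a larger difference between strains, gave p = 0.00714. Without the genes placed on chromosome 1 the difference between both means was 0.0126, against 0.0130 with all genes, and p was again 0.00714 in the exact permutation test. A median over all genes moves little when the 722 genes of chromosome 1 are left out, so this cannot tell what part that chromosome had.

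**Figure D2:**
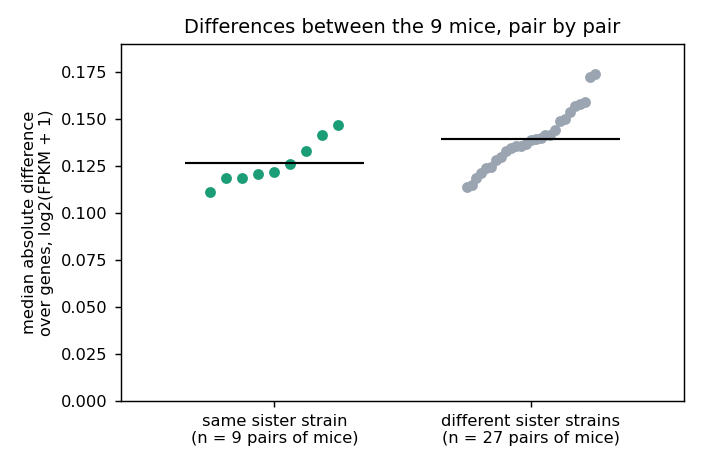
Median absolute difference between 2 mice over 14079 genes, on the log2(FPKM + 1) scale, for the 9 pairs of mice of the same sister strain and the 27 pairs of different sister strains, with black lines at the means of 0.127 and 0.140. Points of both kinds overlap between 0.114 and 0.147.

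The 9 libraries had similar totals, with gene FPKM sums from 328734 to 338947. Genes listed at 0 numbered 79 to 123 in 8 libraries and 191 in AXB-19 mouse 3, and read depth cannot be read from FPKM. Choroid plexus markers summed to 1498 FPKM in 1 AXB-19 mouse, of which transthyretin (Ttr) gave 1447 in mouse 2, against 10.9 to 36.2 in the AXB-20 mice and 21.3 to 409.2 in the AXB-18 mice. Hemoglobin genes and Alas2 summed to 197.8 to 225.2 FPKM in AXB-18, 94.7 to 116.3 in AXB-19 and 107.0 to 229.5 in AXB-20. In whole tissue, fewer cells of a type and less RNA per cell cannot be told apart. No gene of these lists passed the F test, and neither did any of 16 hypothalamic peptides, 6 pituitary, 5 thalamus, 9 immediate early, 8 glucocorticoid responsive, 6 myelin, 5 astrocyte and 6 microglia genes. The pituitary genes were uneven within each strain, with sums from 6.24 to 71.1 FPKM in AXB-18, 4.58 to 269.7 in AXB-19 and 3.67 to 85.7 in AXB-20. The peptide gene Pomc was at 631.1 FPKM in AXB-19 mouse 1 and 13.9 to 91.2 in the other mice. Unadjusted p in this test was under 0.05 for 3 of the 6 microglia genes and 3 of the 5 blood genes. Of the microglia genes, Cx3cr1, the fractalkine receptor, was nearest the threshold (limma adjusted p = 0.0540). It was at 7.56 to 8.84 FPKM in AXB-18 and 9.83 to 12.7 in the other 6 mice. Csf1r was likewise lower in AXB-18, at 11.4 to 14.3 FPKM against 15.1 to 19.99 (limma adjusted p = 0.0902). Tmem119 was at 1.43 to 2.83 FPKM against 3.05 to 5.41 (limma adjusted p = 0.312). For Aif1, P2ry12 and C1qa the ranges of AXB-18 and the other mice overlapped.

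The strain that stood apart was the one whose mean was the extreme with the larger gap to the middle mean. It was AXB-18 in 32 of the 58 genes, higher in 21 and lower in 11, AXB-20 in 15 and AXB-19 in 11. Both pair comparisons with that strain passed, and the third did not, in 19, 11 and 4 of these genes. In 34 genes both comparisons with the strain that stood apart passed and that of the other 2 did not, and in 50 genes the 3 mice of that strain did not overlap the other 6. These counts describe the genes that passed and are no further test of them, and the share of such genes over all genes is not given here. The 49 genes with a position in the deposited assembly lay on 14 chromosomes, and 20 of them (40.8%) were on chromosome 1, which holds 5.76% of the placed genes tested.

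On chromosome 1 the called genes formed 3 runs, defined as at least 3 called genes with gaps of at most 5 Mb and the same strain apart. The first, chr1:171225091-172374196 in mm10, held Apoa2, F11r, Ncstn, Copa, Dcaf8 and Kcnj10, 6 of 25 genes tested there. The second, chr1:177762962-182517774, held Adss, XLOC_000888, the Hnrnpu locus, XLOC_002319, Nvl, Srp9 and Capn2, 7 of 41 genes tested. In both runs AXB-18 was the strain apart. The gap between them is little over the 5 Mb limit, and whether they are 1 segment was not tested. In the third, chr1:186087731-192151013, AXB-20 stood apart in Lyplal1, Tatdn3, Ints7 and Gm10516, 4 of 24 genes tested.

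Of the 13 genes of the first 2 runs, 8 also differed between the parents, and in each of these AXB-18 was nearer to C57BL/6J and AXB-19 and AXB-20 nearer to A/J. The parents did not pass for F11r, Ncstn, Kcnj10, the Hnrnpu locus and Capn2 (limma adjusted p from 0.0508 to 0.557). Both spans hold 9 more genes that differed between the parents and were not called among the sisters, and 3 of them (Nit1, Desi2 and Acbd3) had the sister means divided in the same way. Fmn2, which lies between the 2 runs and differed between the parents, was divided likewise and not called among the sisters (limma adjusted p = 0.645). Copa (chr1:172082204-172122515) encodes the alpha subunit of the coatomer that coats vesicles from the Golgi to the endoplasmic reticulum. Its FPKM was 69.1, 69.6 and 70.8 in AXB-18, 43.6, 44.9 and 43.5 in AXB-19, and 43.1, 46.7 and 43.1 in AXB-20. The AXB-18 mice lay above all other sister mice, and the means were 43.5 ± 0.781 (SD, n = 3) in A/J and 68.3 ± 0.337 (SD, n = 3) in C57BL/6J. Other strains of the series reached a mean of 77.6 FPKM for Copa. AXB-18 was higher by 0.65 ± 0.06 (SE) on the log2 scale than AXB-19, and the F test of limma gave an adjusted p of 1.55e-21.

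Nvl (chr1:181078421-181144189) encodes a nuclear ATPase of ribosome assembly. It was at 16.3, 16.6 and 18.05 FPKM in AXB-18, 7.23, 7.66 and 6.43 in AXB-19, and 6.84, 7.88 and 7.77 in AXB-20. The 3 AXB-18 mice were thus 2.33 times as high in the mean as the other 6, without overlap, and C57BL/6J (16.7 ± 0.335, SD, n = 3) and A/J (7.30 ± 0.408, SD, n = 3) showed the same pair of levels (limma adjusted p = 7.65e-19 among the sisters). Srp9 (chr1:182124301-182132551), a subunit of the signal recognition particle that takes nascent secretory proteins to the endoplasmic reticulum, was at 38.0, 35.2 and 39.7 FPKM in AXB-18, between 15.8 and 17.6 in the other 6 mice, 34.5 ± 1.11 in C57BL/6J and 17.4 ± 1.39 in A/J (SD, n = 3 each; limma adjusted p = 5.68e-16).

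The locus XLOC_000888 (chr1:177983254-178113167), which overlaps Catspere2, a subunit of a sperm ion channel, ran the other way. It was at 2.55, 3.15 and 2.84 FPKM in AXB-18, 10.4, 12.6 and 10.9 in AXB-19, and 9.44, 10.9 and 11.5 in AXB-20. Mean FPKM in AXB-18 was 0.260 times that of the other 6 mice, and the parents were at 2.81 ± 0.475 (C57BL/6J) and 11.7 ± 0.751 (A/J; SD, n = 3 each). The unannotated 1-exon locus XLOC_002319 (chr1:179648611-179649162) was at 7.68, 8.69 and 11.8 FPKM in AXB-18 and was listed at 0 in all 6 mice of the other sister strains and all 3 A/J mice. The C57BL/6J mice had 5.65, 2.13 and 2.53 FPKM, all below the AXB-18 mice (limma adjusted p among the sisters 3.18e-20).

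Smaller differences accompanied these. Dcaf8, a substrate receptor of a ubiquitin ligase, was at 35.7 to 38.6 FPKM in AXB-18 and 28.4 to 32.5 in the other 6 mice, and Adss, an enzyme of adenine nucleotide synthesis, at 29.6 to 35 and 24.3 to 26.5 FPKM (limma adjusted p = 1.11e-05 and 0.000142). Capn2, the large subunit of a calcium dependent protease, was lower in AXB-18, at 25.1 to 27.5 FPKM against 31.6 to 35.3 (limma adjusted p = 7.98e-06), and the parents had 31.4 ± 0.774 (A/J) and 28.7 ± 1.57 (C57BL/6J; SD, n = 3 each). Kcnj10, a potassium channel of glial cells, was also lower in AXB-18, at 89.8 to 102.7 FPKM against 119.7 to 131.6 (limma adjusted p = 0.00113), and its call was lost without AXB-18 mouse 2 (limma adjusted p = 0.0851). The summed astrocyte markers were lower with it, from 333.1 to 355.3 FPKM in AXB-18 and from 370.1 to 420.1 in the other 6 mice. Within this list Slc1a2 was at 136.2 to 136.9 FPKM in AXB-18 and 149.9 to 162.4 in the others, Aldh1l1 was at 17.0 to 19.6 and 15.2 to 18.1, and none of the 5 genes had an unadjusted p under 0.05. Their part in the result was not tested. Among the other genes of these runs, F11r, an adhesion protein of tight junctions, was at 2.13 to 3.85 FPKM in AXB-18 and 4.79 to 8.90 in the other 6 mice, and it did not pass without AXB-18 mouse 1 (limma adjusted p = 0.136). Ncstn, a subunit of gamma-secretase whose locus overlaps that of Copa, was at 27.2 to 28.3 FPKM against 19.1 to 23.2 (limma adjusted p = 0.00195). The Hnrnpu locus, which holds a nuclear RNA-binding protein and overlaps Cox20, was at 143.9 to 150.9 FPKM in AXB-18 and 117.8 to 131.5 in the other 6 mice (limma adjusted p = 0.0131), and its call was lost in 5 of the 9 fits that left out 1 mouse (limma adjusted p up to 0.308). Apoa2, an apolipoprotein of high density lipoprotein, was at 0.941, 1.29 and 3.598 FPKM in AXB-18 and listed at 0 in 5 of the other 6 mice. Without AXB-18 replicate 3 its difference fell from 1.35 to 0.98 on the log2 scale and its call was lost (limma adjusted p = 0.286), and that of Adss was lost likewise (0.158). With the spread of the 9 mice alone, Copa, Nvl, Srp9, XLOC_000888 and XLOC_002319 passed, and the other 8 genes of the first 2 runs did not (limma adjusted p from 0.159 to 0.332).

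**Figure D3:**
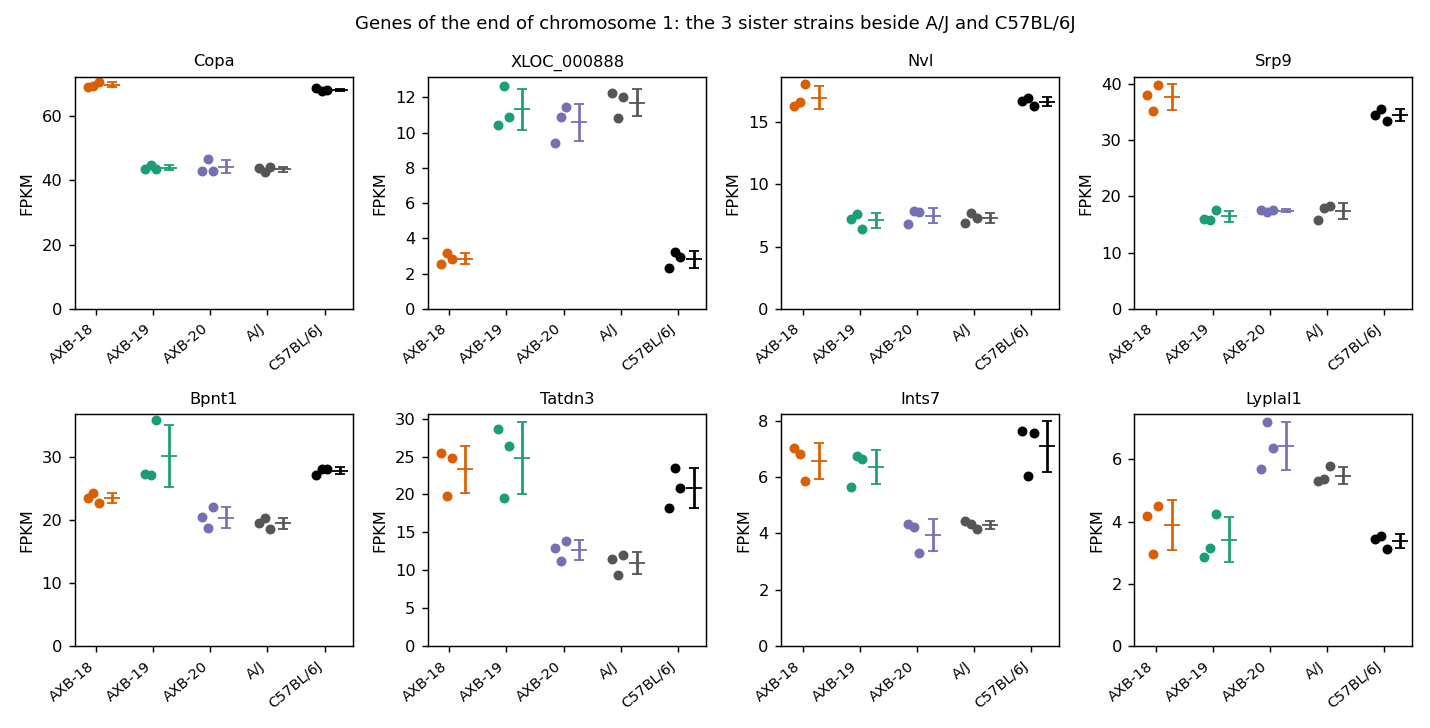
FPKM (vertical axes) of 8 genes of chromosome 1 in every mouse of the 3 sister strains, A/J and C57BL/6J, with the mean and SD of 3 mice beside the points. In the upper row AXB-18 sits with C57BL/6J, as in Copa with 69.1 to 70.8 FPKM, and in Tatdn3, Ints7 and Lyplal1 AXB-20 sits with A/J.

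In the 4 called genes of the third run AXB-18 and AXB-19 were both nearer to C57BL/6J, and AXB-20 to A/J. Gpatch2 and Vash2, the other 2 genes of this span that differed between the parents, were not called among the sisters, and in both AXB-19 and AXB-20 were nearer to A/J. Ints7 (chr1:191575763-191622672), a subunit of the Integrator complex that processes small nuclear RNA, was at 4.31, 4.24 and 3.30 FPKM in AXB-20 and between 5.65 and 7.04 in the other 6 mice. The AXB-20 mice were the lowest 3 of the 9, and the parents had 4.30 ± 0.146 (A/J) and 7.08 ± 0.900 (C57BL/6J; SD, n = 3 each; limma adjusted p among the sisters 3.46e-11). Tatdn3, a predicted nuclease, was at 13, 11.2 and 13.8 FPKM in AXB-20 and 19.5 to 28.6 in the other 6 mice (limma adjusted p = 4.40e-05). Gm10516, a locus that overlaps Rcor3, was at 1.73 to 1.81 FPKM in AXB-20 and 2.47 to 3.95 in the others (limma adjusted p = 0.000484). Lyplal1, a lysophospholipase-like enzyme, was higher in AXB-20, at 5.69, 7.21 and 6.37 FPKM against 2.86 to 4.49, and A/J was likewise above C57BL/6J (5.47 ± 0.259 and 3.37 ± 0.229 FPKM, SD, n = 3 each). Its call was lost without AXB-20 mouse 2 (limma adjusted p = 0.0848). None of the 4 genes passed with the spread of the 9 mice alone (limma adjusted p from 0.158 to 0.231).

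Bpnt1, a phosphatase of sulfate metabolism, starts at position 185332106 of chromosome 1, between the second and the third run, and all 3 strains had their own range. It was at 27.4, 27.2 and 35.9 FPKM in AXB-19, 23.6, 24.3 and 22.7 in AXB-18, and 20.5, 18.7 and 22.0 in AXB-20 (limma adjusted p = 0.00396). A/J had 18.6 to 20.3 FPKM and C57BL/6J 27.2 to 28.2. The call was lost without AXB-19 mouse 3 (limma adjusted p = 0.408) or without AXB-20 mouse 2 (0.0633).

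**Figure D4:**
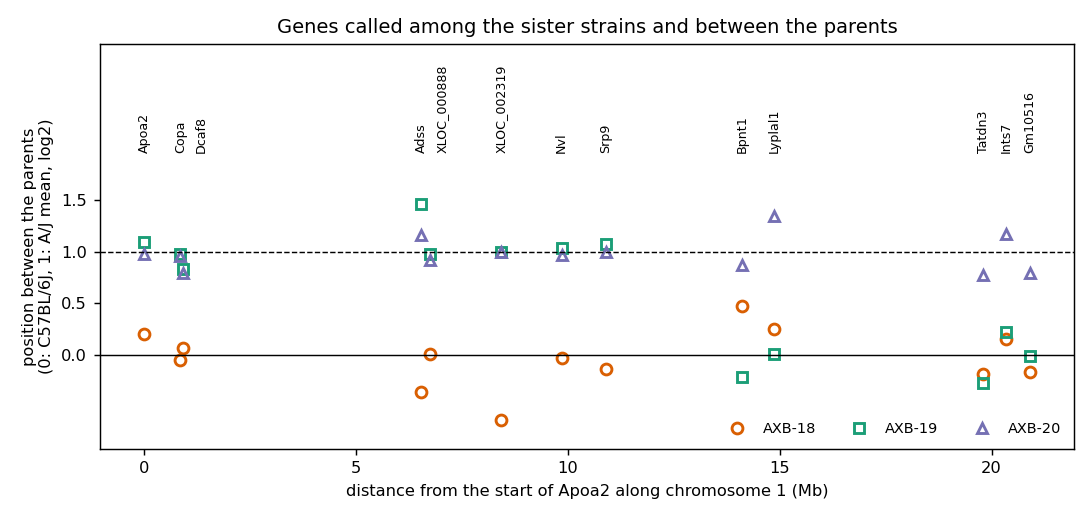
Position of each sister strain between C57BL/6J (0) and A/J (1) on the log2 scale (vertical axis) for the 13 genes of the end of chromosome 1 called both among the sisters and between the parents, against the distance from the start of Apoa2 in Mb (horizontal axis). For the 8 genes up to Srp9 AXB-18 lies between -0.63 and 0.20 and the others between 0.79 and 1.45, and from Lyplal1 on AXB-20 lies between 0.78 and 1.34 and the others between -0.27 and 0.26.

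Taken over all chromosomes, 26 of the 58 genes also differed between A/J and C57BL/6J, and in 23 of these the strain that stood apart was nearer to 1 parent and the mean of the other 2 nearer to the other parent. The strain apart was nearer to C57BL/6J in 18 of the 23 and to A/J in 5, with Fggy, counted among the 18, at the midpoint, and 13 of the 23 were on chromosome 1. The higher level was that of C57BL/6J in 18 of the 23. Reads had been aligned to mm10, the C57BL/6J sequence, and the part of that in these levels was not tested. Of the 224 genes that differed at least 2-fold between the parents, 9 (4.02%) differed among the sisters and 137 (61.2%) among AXB-5, AXB-13 and AXB-15.

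The smallest adjusted p of all was that of an unannotated 1-exon locus on chromosome 2, XLOC_020972 (chr2:87526027-87526910), which overlaps the processed pseudogene Gm13736. Its FPKM was 0.524, 0.834 and 0.746 in AXB-18, 18, 22.9 and 16.9 in AXB-19, and 18.9, 22.7 and 21.9 in AXB-20. AXB-18 was again with C57BL/6J (0.520 ± 0.317 FPKM, SD, n = 3) and the others with A/J (19.1 ± 1.59, SD, n = 3), and the other 6 mice were 28.8 times as high in the mean as AXB-18 (limma adjusted p = 4.49e-46). On chromosome 4, AXB-20 was higher in 2 genes. Fggy, a carbohydrate kinase, was at 3.77, 5.47 and 4.502 FPKM in AXB-20 and 0.920 to 2.82 in the other 6 mice, and Kank4, a protein of the KANK family at the cytoskeleton, at 3.68, 3.97 and 4.0 FPKM against 1.58 to 2.43 (limma adjusted p = 0.000684 and 0.00113). A/J and C57BL/6J had 1.69 ± 0.259 and 3.79 ± 0.392 FPKM for Kank4, and 2.65 ± 0.804 and 7.71 ± 2.28 FPKM for Fggy (SD, n = 3 each), so that AXB-20 was at the level of C57BL/6J in Kank4 and midway between the parents on the log2 scale in Fggy. Fggy did not pass with the spread of the 9 mice alone (limma adjusted p = 0.167). Bex1, a small X-linked protein of neurons, was at 98.7, 106.2 and 106.5 FPKM in AXB-18 and 57.1 to 69.0 in the other 6 mice, with 70.0 in A/J and 102.0 in C57BL/6J in the mean (limma adjusted p among the sisters 0.00592). Its call was lost without AXB-18 mouse 2 or mouse 3 (limma adjusted p = 0.0851 and 0.106). Loci named by their identifier alone, with no transcript in the deposited assembly, made up 9 of the 58 genes, among them XLOC_000922, at 0.522 to 2.03 FPKM in AXB-18 and 5.97 to 9.53 in the other 6 mice.

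In 15 of the 58 genes the strain that stood apart was outside the range of all 6 parental mice, above it in 9 and below it in 6, and in 13 of the 15 the parents did not pass the test of their difference. These genes had been called for a difference among the sisters, and the share over all genes was not taken. The 15 include the locus of Cdk2ap1 and Sbno1, a call of 1 library. They also include Dnaja2, XLOC_016924 and Srsf2, which held in only 3, 2 and 3 of the 9 fits that left out 1 mouse. Pip5k1b (chr19:24294794-24555872) encodes a kinase that makes phosphatidylinositol 4,5-bisphosphate. Its FPKM was 1.28, 4.04 and 4.55 in AXB-20, 8.68, 7.63 and 7.31 in AXB-18, and 7.72, 9.96 and 9.71 in AXB-19. The AXB-20 mice were below the other 6 and below all parental mice (8.02 ± 0.344 in A/J and 9.24 ± 1.22 in C57BL/6J, SD, n = 3 each), and the lowest mean of any other strain of the series was 6.91 FPKM (limma adjusted p = 5.09e-18, and at most 4.05e-08 without any 1 mouse). The lowest single mouse of the other strains had 4.40 FPKM, below AXB-20 mouse 3.

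Chn2 (chr6:54039371-54302190), a GTPase activating protein for Rac, was at 11.03, 12.57 and 13.16 FPKM in AXB-20, 19.4, 20.4 and 17.9 in AXB-18, and 24.8, 20.9 and 21.5 in AXB-19. All 3 AXB-20 mice were below each of the other 272 mice with a strain, the nearest of which had 13.22 FPKM against 13.16 in the highest AXB-20 mouse. The parents had 19.8 ± 1.70 (A/J) and 19.7 ± 0.255 (C57BL/6J; SD, n = 3 each; limma adjusted p among the sisters 2.72e-06). Pfkp (chr13:6579768-6648777), a phosphofructokinase of glycolysis, was lower in AXB-18, at 34.5, 37.6 and 57.1 FPKM against 61.6 to 73.3 in the other 6 mice. AXB-18 mouse 3 was close to the lowest other mouse of the series (55.7 FPKM) while mice 1 and 2 were well below it (limma adjusted p = 4.41e-14). Atf4, a transcription factor of the integrated stress response, was higher in AXB-18, at 69.5, 68.3 and 69.4 FPKM against 43.4 to 51.1, with 49.2 ± 4.30 in A/J and 59.8 ± 2.93 in C57BL/6J (SD, n = 3 each; limma adjusted p = 2.94e-05). Other strains of the series reached a mean of 89.0 FPKM for Atf4. With the spread of the 9 mice alone, Pip5k1b and Pfkp did not pass (limma adjusted p = 0.262 and 0.288), while Chn2 and Atf4 did (0.0399 and 0.0442).

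The Pisd pseudogenes differed among the sisters as well. Pisd-ps2 on chromosome 17 was at 35.6, 35.8 and 34.7 FPKM in AXB-18, 19.6, 14.7 and 15.5 in AXB-19, and 58.8, 57.4 and 61.5 in AXB-20 (limma adjusted p = 7.11e-14), and it was the only gene in which all 3 pairs passed. Pisd-ps1 on chromosome 11 had means of 104.3 ± 6.86, 42.2 ± 4.86 and 146.4 ± 16.9 FPKM (SD, n = 3 each; limma adjusted p = 4.77e-10), with AXB-19 below both others, while AXB-18 against AXB-20 did not pass (limma adjusted p = 0.815). A merged locus on chromosome 5 that sums Pisd, an enzyme of phosphatidylethanolamine synthesis, with Prr14l and Gm20671 was at 30.7 to 33.5, 26.3 to 29.0 and 34.7 to 36.4 FPKM (limma adjusted p = 0.00229, and 0.0555 without AXB-19 mouse 2). A/J was at 4.91 ± 0.445 for Pisd-ps2 and 10.2 ± 2.18 for Pisd-ps1 (SD, n = 3 each). The C57BL/6J mice spread from 15.4 to 31.3 FPKM for Pisd-ps2 and from 48.5 to 102.7 for Pisd-ps1. For Pisd-ps1 they lay between the lowest and the highest sister means. For Pisd-ps2 they reached below the lowest sister mean, which was 16.6 FPKM in AXB-19. These copies are near-identical and can share reads, and Pisd-ps1 lies within the locus of Sfi1, so the level of each single copy is uncertain.

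Further genes of the 58 outside these runs differed less. Dusp16, a phosphatase of MAP kinases, was at 4.01, 4.13 and 4.43 FPKM in AXB-18 and 5.03 to 6.51 in the other 6 mice (limma adjusted p = 0.000767). Rab39b, an X-linked small GTPase of neurons, was also lower in AXB-18, at 12.3, 11.6 and 12.2 FPKM against 13.7 to 18.01 (limma adjusted p = 0.00146). Neither call was lost without any 1 mouse, though neither gene passed with the spread of the 9 mice alone (limma adjusted p = 0.201 for both), and neither gene passed between the parents (limma adjusted p = 0.0584 and 0.0845). Mrpl50, a protein of the mitochondrial ribosome, and Rraga, a GTPase of nutrient sensing by mTOR, both lie on chromosome 4 and were higher in AXB-18. Mrpl50 was at 16.7 to 18.5 FPKM against 11.1 to 15.5 in the other 6 mice, and Rraga at 75.8 to 83.5 against 65.9 to 71.4 (limma adjusted p = 0.0148 and 0.0226). C57BL/6J was above A/J in both, with 16.8 ± 0.359 and 13.1 ± 0.358 FPKM for Mrpl50 and 76.02 ± 3.83 and 62.8 ± 3.78 for Rraga (SD, n = 3 each). Leaving out single mice took the adjusted p of Mrpl50 to 0.286 and that of Rraga to 0.483 at most, so that both calls rest on few mice.

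In 6 of the 58 genes the highest of the 9 mice was over 2 times the next, Apoa2 among them, and for the other 5 the call was that of 1 library. Akt1s1, an inhibitory partner of the kinase mTOR, was at 863.3 FPKM in AXB-19 mouse 1 and between 15.8 and 20.7 in the other 8 mice, and its difference of 1.82 on the log2 scale became -0.0022 without that mouse (limma adjusted p = 1.25e-05 with it and 1 without it). The loci of Acp2 (114.7 FPKM in AXB-19 mouse 3), Gm24993 (171.0 in AXB-19 mouse 2), Cdk2ap1 and Sbno1 (108.8 in AXB-20 mouse 1) and 2410002F23Rik (153.5 in AXB-18 mouse 3) had the same form. None of these 5 is counted among the 26 that held without any 1 mouse.

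**Figure D5:**
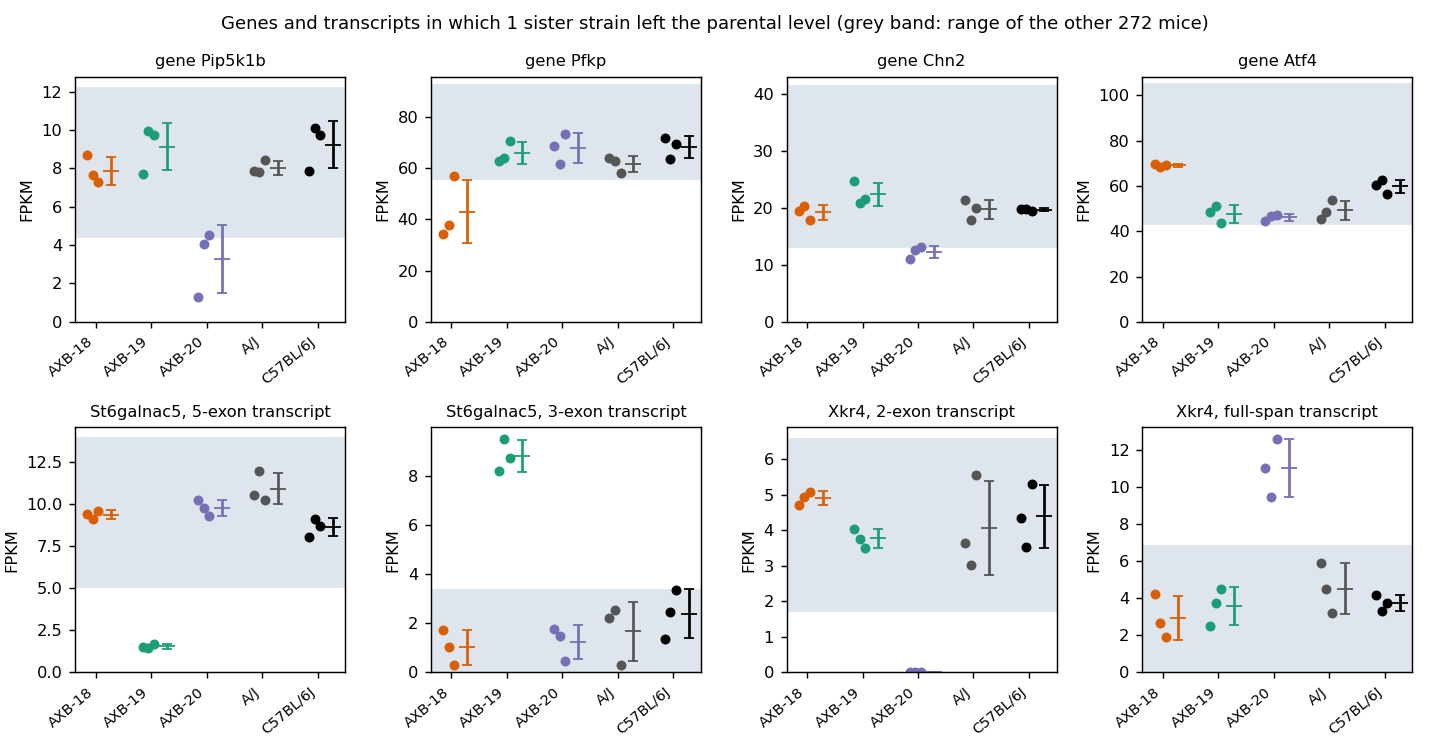
FPKM (vertical axes) of 4 genes (upper row) and 4 transcripts (lower row) in every mouse of the sister strains, A/J and C57BL/6J, with the mean and SD of 3 mice beside the points and the range of the other 272 mice in grey. AXB-20 lies below or at the edge of the grey band in Pip5k1b and Chn2, and AXB-19 lies outside it in both transcripts of St6galnac5.

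Transcripts were tested beside the gene sums. Of 51024 transcripts, 66 (0.129%) in 46 loci differed among the sisters in the F test of limma, and 38 of them belonged to genes that did not pass. The transcripts described here were chosen after their values had been seen, and transcript FPKM are estimates that divide shared reads among isoforms. In 6 transcripts of 3 genes, St6galnac5, Xkr4 and Arhgap26, the strain apart was outside the range of all 272 other mice. For the Xkr4 transcript chr1:3199514-3319208 this rests on values near 0, with AXB-20 at 0 and the lowest other mouse at 5.66e-05 FPKM.

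St6galnac5 encodes a sialyltransferase of brain gangliosides and lies on the reverse strand of chromosome 3. Its 5-exon transcript (chr3:152817081-152982246) was at 1.496, 1.42 and 1.67 FPKM in AXB-19, 9.42, 9.10 and 9.58 in AXB-18, and 10.2, 9.74 and 9.31 in AXB-20. Its 3-exon transcript (chr3:152975374-152982052), which spans 6.68 kb at the 5′ end of the same gene in place of 165.2 kb, was at 8.19, 9.50 and 8.72 FPKM in AXB-19 and 0.298 to 1.77 in the other 6 mice. The AXB-19 mice thus had the long form at less than that of any other mouse of the series (lowest 5.04 FPKM) and the short form at more (highest 3.35; limma adjusted p = 3.89e-32 and 6.23e-07). The gene sum did not pass, at 10.4 ± 0.672, 10.3 ± 0.617 and 10.98 ± 1.14 FPKM in AXB-18, AXB-19 and AXB-20 (SD, n = 3 each; limma adjusted p = 1).

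Xkr4, of a family of membrane proteins that includes phospholipid scramblases, lies on the reverse strand at the start of chromosome 1 and had 5 transcripts in the table. Of these, 4 were listed at 0 in all 3 AXB-20 mice. Among them, chr1:3199514-3319216 and chr1:3206523-3215632 did not pass (limma adjusted p = 0.609 and 0.549), and the latter was also listed at 0 in 16 mice of other strains. The 2-exon transcript chr1:3199514-3211368 was at 4.70, 4.93 and 5.07 FPKM in AXB-18 and 4.04, 3.75 and 3.50 in AXB-19, and the lowest of the 272 other mice had 1.71. The fifth (chr1:3214482-3671498), which covers 457.0 kb and ends upstream of that transcript, was at 11.04, 9.49 and 12.6 FPKM in AXB-20 and 1.92 to 4.51 in the other 6 sister mice (limma adjusted p = 1.27e-24 and 0.000460). The gene sum was 14.1 ± 2.13, 15.7 ± 1.02 and 12.1 ± 1.73 FPKM (SD, n = 3 each) in AXB-18, AXB-19 and AXB-20 and did not pass (limma adjusted p = 0.970).

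Arhgap26 had a 5-exon transcript at 0.129, 0.230 and 0.274 FPKM in AXB-19 against 1.68 to 2.32 in the other 6 mice, and its gene sum did not pass (limma adjusted p = 0.433). Sdhc, a membrane subunit of succinate dehydrogenase, lies just before Apoa2 on chromosome 1 and differed in its isoforms as the parents did. The 6-exon transcript that starts at position 171150603 on the reverse strand was at 11.6, 12.5 and 12.9 FPKM in AXB-18. It was at most 2.47 in the other 6 mice, with at most 1.10 in A/J and 11.7 to 13.5 in C57BL/6J (limma adjusted p among the sisters 1.80e-35). The 6-exon transcripts that start close by, at 171150623 and 171150630, ran the other way (limma adjusted p = 0.000246 and 2.04e-09). The former was at 0.685 to 1.27 FPKM in AXB-18 and 5.06 to 7.60 in the other 6 mice. The latter was near 0 in AXB-18 and at 2.27 to 6.76 in the others. How shared reads were divided among these transcripts was not tested. The gene sum of Sdhc did not pass (limma adjusted p = 1).

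Of 6 genes that differ between A/J and C57BL/6J and serve as a check of the cross (Nnt, Gabra2, Glo1, Btbd9, Alad and Hdhd3), none passed among the sisters. Only Glo1, Btbd9, Alad and Hdhd3 bear on the sisters, since the means of the 9 other strains ran only from 9.90 to 11.8 FPKM for Nnt and from 49.3 to 55.9 for Gabra2. Nnt, the mitochondrial transhydrogenase of which C57BL/6J carries a deletion, was at 9.47 to 11.8 FPKM in the 9 mice, with 10.6 ± 1.14 in A/J and 6.00 ± 0.0524 in C57BL/6J (SD, n = 3 each; limma adjusted p among the sisters 0.985). Glo1, which detoxifies methylglyoxal, was at 31.9 to 37.5 FPKM in the 9 mice, beside 34.5 ± 2.83 in C57BL/6J and 95.9 ± 2.45 in A/J (SD, n = 3 each), and Alad, an enzyme of heme synthesis, at 11.8 to 19.8 FPKM beside 16.3 ± 1.37 and 34.2 ± 1.78. Glo1, Btbd9, Alad and Hdhd3 all passed among AXB-5, AXB-13 and AXB-15 (limma adjusted p from 7.19e-24 to 3.82e-06), and Nnt and Gabra2 did not.

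Set against the 9 other AXB/BXA strains with 3 mice, the sister family as a whole differed in 1760 genes (12.5%), 854 higher and 906 lower, of which 52 differed at least 2-fold and 21 were among the 58. The 10 with the smallest adjusted p all differed between the parents too, and the family mean was nearer to A/J in 8 of them and to C57BL/6J in 2. The p-values of this family comparison rest on the spread between mice within strains and leave out the variation between strains. They hold for these strains only, and the 3 sister strains are not independent draws from the cross. Pttg1, the securin that holds sister chromatids together, was at 0.446 to 2.61 FPKM in the 9 sister mice, 1.17 ± 0.348 in A/J and 33.5 ± 2.97 in C57BL/6J (SD, n = 3 each), and the other 27 mice ran from 0.237 to 40.7 FPKM with a median of 29.6 (limma adjusted p = 3.46e-39). The low level was not particular to the sisters, since the lowest mean among the 9 other strains was 0.485 FPKM. The pseudogene locus XLOC_000253 (Eif4a-ps4) was at 52.2 to 67.8 FPKM in the sister mice and ran from 1.203 to 70.5 in the other 27 mice, with a median of 2.07 and a highest strain mean of 69.6, beside 56.96 ± 4.38 in A/J and 1.78 ± 0.464 in C57BL/6J (SD, n = 3 each).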

How the data were processed

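RNA of whole hypothalamus was sequenced by the authors as paired-end libraries made with a TruSeq kit, 1 per mouse, with replicates of a strain placed on different lanes. Alignment by the authors used STAR 2.3.1 and the mm10 genome. They built transcripts for each strain with Cufflinks 2.2.0, combined these with an annotation, and quantified every mouse with Cuffnorm 2.2.1. The deposited values are FPKM (fragments scaled by transcript length and library size, made comparable between mice by the authors), and the authors kept features above 0 and above 1 in set numbers of mice of the whole panel. FPKM carry no counts, so read depth cannot be read from them, and the SD over 3 mice gives the precision. GENCODE M21 on the same assembly gave overlaps and gene types.

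Strains were taken from the labels, and 1 mouse with a title and a strain label that differ was excluded. Nothing in the labels says how mice of a strain were related, so p-values hold for these mice only. The main limma p-values rest on the spread between mice within strains, pooled over all 99 strains and not over the compared strains alone. The exact permutation tests instead rank the observed set among all sets of strains or all divisions of mice. Values of log2(FPKM + 1) entered a linear model in limma 3.58.1 in R 4.3.3 over 281 mice, with 99 strain means, no covariate and 182 residual degrees of freedom; p-values were Benjamini-Hochberg adjusted over 14079 genes or 51024 transcripts. Fold changes on this scale understate those of low genes. On simulated data of this comparison with 14079 genes, 57% of changes of 0.5 and 93% of changes of 1 on the log2 scale were recovered, and 6.25% of the called genes were false. The simulation had 100 changes of each size in AXB-18 alone and independent normal noise, without genes that are high in a single library. Its false share therefore does not carry over to the calls made here. A strain stood apart where its mean was the extreme with the larger gap to the middle mean.

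The 3 strains, the gene lists and the tests were chosen with earlier results of these data known. The genes to name were the 25 with the smallest adjusted p among the sisters, the 10 largest differences without overlap, called marker genes, the 10 smallest adjusted p of the family comparison and 6 genes known to differ between the parents; others were chosen after their values were seen. Alternatives were quantile normalization, a pseudocount of 0.1, only genes whose mean FPKM was 1 or more, the mapped reads and percentage of unique reads that the study lists per mouse as covariates, limma's trend and robust options, the 9 mice alone, a threshold of 0.01, and leaving out each of the 9 mice or mouse OB-547, a library that stands apart in the panel. Rows of start sites and coding sequences are not used here, and 4 marker lists are not reported here.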

Additional observations from a re-analysis of the deposited data

How the results depend on the processing

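The count of 58 genes among the sister strains was 17 with the 9 mice alone, where fewer degrees of freedom estimate the spread, 26 when a call also had to hold without each of the 9 mice, and 38 without chromosome 1; the last 2 were chosen after seeing the data. Leaving out each of the 9 mice gave 41 to 66 genes. With the 9 mice alone AXB-18 and AXB-19 differed in 12 genes, AXB-18 and AXB-20 in 14, and AXB-19 and AXB-20 in 2. Leaving out each mouse gave 22 to 41 genes for AXB-18 against AXB-19, lowest without AXB-19 replicate 3, 28 to 45 for AXB-18 against AXB-20, with 28 without AXB-18 replicate 3 and also without AXB-20 replicate 3, and 13 to 19 for AXB-19 against AXB-20, with 13 without AXB-20 replicate 2 and also without AXB-20 replicate 3. The 66 transcripts became 123 with a pseudocount of 0.1, and the cause was not tested. The other alternatives kept these counts within 1.5 times, and both exact permutation tests kept their side of the threshold in every alternative run. Of the 26 genes named by the rule among the sisters, 11 passed with the 9 mice alone, and the difference of Akt1s1 (1.82 on the log2 scale) ran from -0.0022 without AXB-19 replicate 1 to 2.81 without AXB-19 replicate 2. No paired analysis was possible because the labels carry no replicate numbers, and the numbers used here only name mice. FPKM without counts limit what can be said of genes near 0.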
